A study of Homo sapiens with 12 samples.

Results

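Aldehyde dehydrogenases are enzymes that oxidise aldehydes to carboxylic acids. Messenger RNA of 10 of their genes was followed across 4 groups of ECC1 cells, an estrogen-responsive line from a human endometrial cancer. The 10 genes were taken by symbol from a table of 34595 rows, and each symbol was found: ALDH3A1, ALDH3A2, ALDH3B1, ALDH1A1, ALDH1A2, ALDH1A3, ALDH2, ALDH7A1, ALDH4A1 and ALDH9A1. The set was built around ALDH3A1, a gene linked to MTDH (metadherin), so that ALDH3A1 could be set beside its relatives. The members were chosen with earlier results of these data known. The rank and calls of ALDH3A1, and the counts that include it, are therefore no independent support for that link. A further 9 genes of the same family, ALDH1B1, ALDH1L1, ALDH1L2, ALDH3B2, ALDH5A1, ALDH6A1, ALDH8A1, ALDH16A1 and ALDH18A1, are given for comparison.

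The parental line carried MTDH, and in the other line MTDH was knocked out. Each line was either left without hormone or given 10 nM estradiol for 24 h, after a day in medium with charcoal-stripped serum, which is depleted of steroids. The 4 groups are called parental untreated, parental estradiol, knockout untreated and knockout estradiol, and each was read on 3 Illumina BeadArrays that hybridise labelled total RNA to gene probes. The knockout is 1 line, so that loss of MTDH and any other difference between the lines cannot be told apart. The labels do not say whether the 3 arrays of a group came from separate cultures, so a p-value reflects only how far these samples scatter, and that scatter may be technical.

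ALDH3A1 is known for high levels in cornea and stomach and for oxidising aromatic and medium-chain aldehydes, and in several cell types its transcription is raised through the aryl hydrocarbon receptor. ALDH3A2 oxidises long-chain fatty aldehydes, and ALDH3B1 is a membrane-bound relative that acts on aldehydes from lipids. ALDH1A1, ALDH1A2 and ALDH1A3 make retinoic acid from retinaldehyde, the last step in the synthesis of a hormone-like regulator of the endometrium and other epithelia. ALDH2 is the mitochondrial enzyme that clears acetaldehyde, while ALDH7A1, ALDH4A1 and ALDH9A1 serve the breakdown of lysine, the breakdown of proline and the synthesis of carnitine, respectively.

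The values are the deposited log2 values, 1 for each gene and array. Array medians lay between 6.78 and 6.86. The median of all values was 6.82, and a gene was tested where at least 3 arrays read above it, as they did for 19670 genes, for all 10 members and for all 9 other family genes. ALDH3B1 was above it on 7 of 12 arrays, ALDH1A1 on 10 and ALDH1A2 on 6, so that these 3 members were read near the low end of the arrays. ALDH1A2 exceeded it on no array of the parental untreated group and passed through the arrays on which it was high. Epithelial markers such as EPCAM (12.19 to 13.09), CDH1 (12.14 to 12.84) and the estrogen receptor gene ESR1 (9.34 to 10.26) were clearly above the median on every array, while KRT18 (6.83 to 6.98) was close to it. Of 8 fibroblast, 7 leukocyte and 5 endothelial markers, 2, 3 and 1, respectively, were above the median on every array of the knockout untreated group.

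MTDH was read first, as the targeted gene. It stood at 11.43, 11.18 and 10.78 in parental untreated cells and at 8.57, 8.53 and 8.59 in knockout untreated cells. With estradiol it read 10.83, 10.96 and 8.97 on the arrays labelled parental and 10.94, 8.49 and 8.49 on those labelled knockout. On the array labelled parental estradiol 3 MTDH thus lay far below the other parental arrays and somewhat above the low knockout arrays, and on that labelled knockout estradiol 1 it was as high as in the parental line. Over all genes, the first was closest to knockout estradiol 3 (Pearson's r = 0.9965) and the second to parental estradiol 2 (r = 0.9967). These are correlations across genes, and genes are no independent replicates. The labels were kept for the analysis of 12 arrays. A second fit leaves out these 2 arrays, a choice made after the values were seen, with 2 arrays then in each estradiol group and 10 in all. Of the genes outside the 10 members that are given below as called with 12 arrays, each was called in the same direction with 10 arrays.

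ALDH3A1 was far higher wherever MTDH was low. It read 9.44, 9.37 and 9.40 in parental untreated cells and 11.93, 11.89 and 11.91 in knockout untreated cells, with no overlap. On the arrays labelled parental estradiol it read 9.65, 9.53 and 11.86. On those labelled knockout estradiol it read 9.73, 11.97 and 11.97. The 2 arrays on which MTDH went against its label were the 2 on which ALDH3A1 did so, and the other 10 arrays fell into a group at 9.37 to 9.65 and a group at 11.89 to 11.97 by line, whatever the hormone.

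**Figure D1:**
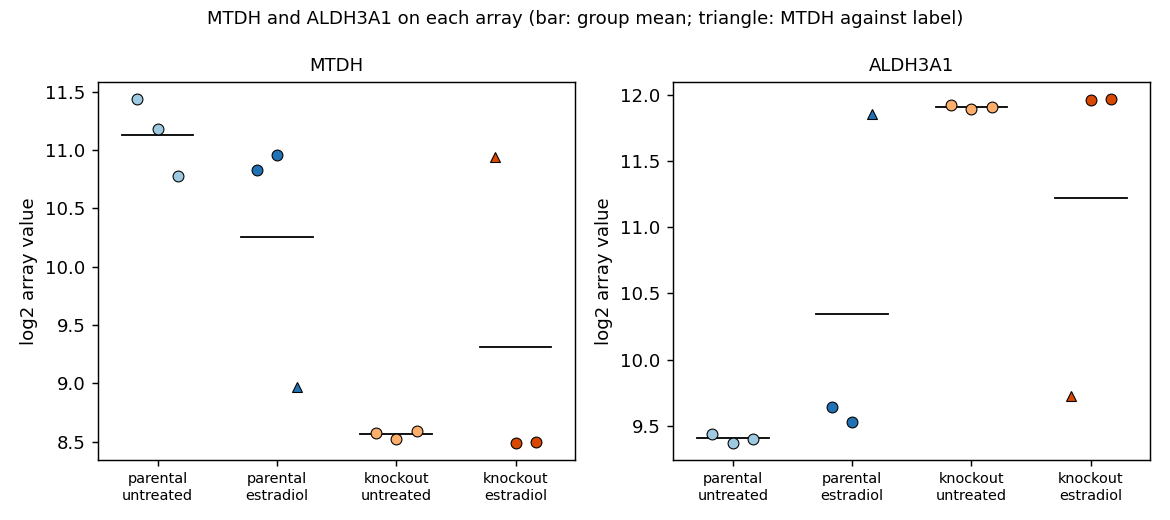
Log2 array values of MTDH (left) and ALDH3A1 (right) in the 4 groups of 3 arrays each, 1 point for each array, with a bar at the group mean and triangles for the 2 arrays whose MTDH went against the label; the y axes do not start at 0. The 3 knockout untreated arrays sit at 8.53 to 8.59 for MTDH and at 11.89 to 11.93 for ALDH3A1, and each triangle lies with the other line in both panels.

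In untreated cells ALDH3A1 was 5.67-fold higher in the knockout line, a log2 change of 2.50 ± 0.585 (SE, n = 3 arrays a group; limma, adjusted p = 0.0187), which ranked 1 of 19670 genes. All 4 groups share 1 estimate of the spread in this fit, so the 2 arrays in the estradiol groups widen the error of the untreated comparison as well. Without them the untreated change was the same and its SE was 0.061 (limma, adjusted p = 3.4e-14). The call with 12 arrays was lost when parental untreated 1 or 2 or knockout untreated 2 or 3 was left out, with adjusted p up to 0.0737, and the change then lay between 2.49 and 2.52.

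In estradiol the difference between the lines as labelled was 0.87 ± 0.585 (12 arrays; limma, adjusted p = 0.909). Once the 2 arrays were left out it was 2.38 ± 0.075, or 5.19-fold (adjusted p = 1.29e-12), and again ranked 1 of 19670. The call for ALDH3A1 in estradiol therefore rests on leaving out these arrays, and the same arrays differed from their labels in MTDH.

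Estradiol did not change ALDH3A1 past the threshold in the fits of 12 and of 10 arrays. With 12 arrays the estradiol response was 0.94 (adjusted p = 0.407) in parental and −0.69 (adjusted p = 0.645) in knockout cells. With 10 arrays these were 0.18 ± 0.068 (limma, adjusted p = 0.100) and 0.06 ± 0.068 (adjusted p = 0.760). The 2 parental arrays left, at 9.53 and 9.65, lay above the 3 untreated ones. The 2 knockout arrays left, both at 11.97, likewise lay above the 3 untreated knockout arrays, at 11.89 to 11.93. After quantile normalization of the 10 arrays, the parental response was 0.32 and passed the threshold (limma, adjusted p = 0.00844). The mean of both lines, 0.15, passed as well (adjusted p = 0.0442). With array weights on the 10 arrays the parental response, 0.19, passed as well (adjusted p = 0.0374). The interaction, which is the response of knockout minus that of parental cells, was −1.63 ± 0.827 (adjusted p = 0.516) with 12 and −0.13 ± 0.097 (adjusted p = 0.634) with 10 arrays.

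Among the relatives, 4 were higher in the knockout line by much smaller amounts, and their calls were made without the 2 arrays. With 12 arrays, limma called 1 of 10 members in untreated cells, ALDH3A1, against 10.9% of all genes tested. Of the 10 members, 3 had an unadjusted p under 0.05, beside 5153 of the 19670 genes tested. Without the 2 arrays, 5 of 10 members were called in untreated cells, 5 higher and 0 lower, against 19.5% of all genes, of which 5.98% rose and 13.6% fell. The 5 were ALDH3A1, ALDH3A2, ALDH1A2, ALDH1A3 and ALDH2. In estradiol, 0 of 10 members were called with 12 arrays (0 of 10 at an unadjusted p under 0.05), where 0.00% of all genes were called and 1064 had an unadjusted p under 0.05. With 10 arrays, 5 of 10 were called in estradiol, 5 higher and 0 lower, against 9.79% of all genes, of which 4.96% rose. These 5 were the same genes as in untreated cells. In both counts ALDH1A2 had passed the filter only through arrays on which MTDH was low and it was itself high, so its calls are no independent support.

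ALDH3A2, the fatty aldehyde dehydrogenase, read 10.13, 10.15 and 10.04 in parental untreated cells and 10.46, 10.33 and 10.37 in knockout untreated cells. The 2 groups did not overlap. The change was 0.28 ± 0.149 (12 arrays; limma, adjusted p = 0.260). With 10 arrays the difference was 0.28 ± 0.080 (adjusted p = 0.0205), and it missed the threshold after background subtraction (adjusted p = 0.0679) and without knockout untreated 1 (adjusted p = 0.0821) or 3 (adjusted p = 0.0521). With estradiol it read 10.16, 10.11 and 10.62 on the arrays labelled parental and 10.12, 10.79 and 10.44 on those labelled knockout. The third parental and the first knockout array lay with the other line, as for ALDH3A1. Without those arrays the estradiol difference was 0.48 ± 0.098 (adjusted p = 0.00391). It ran from 0.31 to 0.65 with a further array left out, and the call was lost without parental estradiol 2 (adjusted p = 0.0517) or knockout estradiol 2 (adjusted p = 0.0635).

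ALDH1A3, a retinaldehyde dehydrogenase, had the largest change of the 9 relatives in untreated cells. It read 7.16, 7.36 and 7.19 in parental untreated cells and 7.62, 7.60 and 7.54 in knockout untreated cells. The groups did not overlap, and the change was 0.35 ± 0.146 with 12 (adjusted p = 0.144) and 0.35 ± 0.070 with 10 arrays (limma, adjusted p = 0.00184). With estradiol it read 7.07, 7.00 and 7.56 on the arrays labelled parental and 6.97, 7.53 and 7.40 on those labelled knockout. The difference in estradiol was 0.43 ± 0.086 without the 2 arrays (adjusted p = 0.00328), and the call was lost when parental estradiol 2 was left out as well (adjusted p = 0.0533).

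ALDH1A2, the retinaldehyde dehydrogenase known from the early embryo, was read near the low end of the arrays. Parental untreated values were 6.71, 6.73 and 6.76 and knockout untreated values were 6.99, 6.97 and 6.98, with no overlap and little spread. The change was 0.25 ± 0.079 with 12 (adjusted p = 0.0591) and 0.25 ± 0.062 with 10 arrays (limma, adjusted p = 0.00943), and the call with 10 arrays held with no filter as well. With estradiol ALDH1A2 read 6.66, 6.68 and 6.93 on the arrays labelled parental and 6.75, 7.00 and 6.85 on those labelled knockout. The difference in estradiol without the 2 arrays, 0.25 ± 0.076 (adjusted p = 0.0455), was lost under 10 of 18 other settings.

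ALDH2, the mitochondrial acetaldehyde dehydrogenase, read 8.84, 8.87 and 8.68 in parental untreated cells and 9.16, 9.01 and 8.92 in knockout untreated cells. The lowest knockout array lay just above the highest parental array. The change was 0.24 ± 0.159 with 12 (adjusted p = 0.393) and 0.24 ± 0.080 with 10 arrays (limma, adjusted p = 0.0469), and the second value was lost under 11 of 19 other settings. With estradiol it read 8.52, 8.53 and 9.13 on the arrays labelled parental and 8.51, 9.08 and 8.87 on those labelled knockout. The difference in estradiol was 0.45 ± 0.097 without the 2 arrays (adjusted p = 0.00606), and the call was lost when parental estradiol 1 or 2 or knockout estradiol 2 was left out as well, with adjusted p up to 0.0923.

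**Figure D2:**
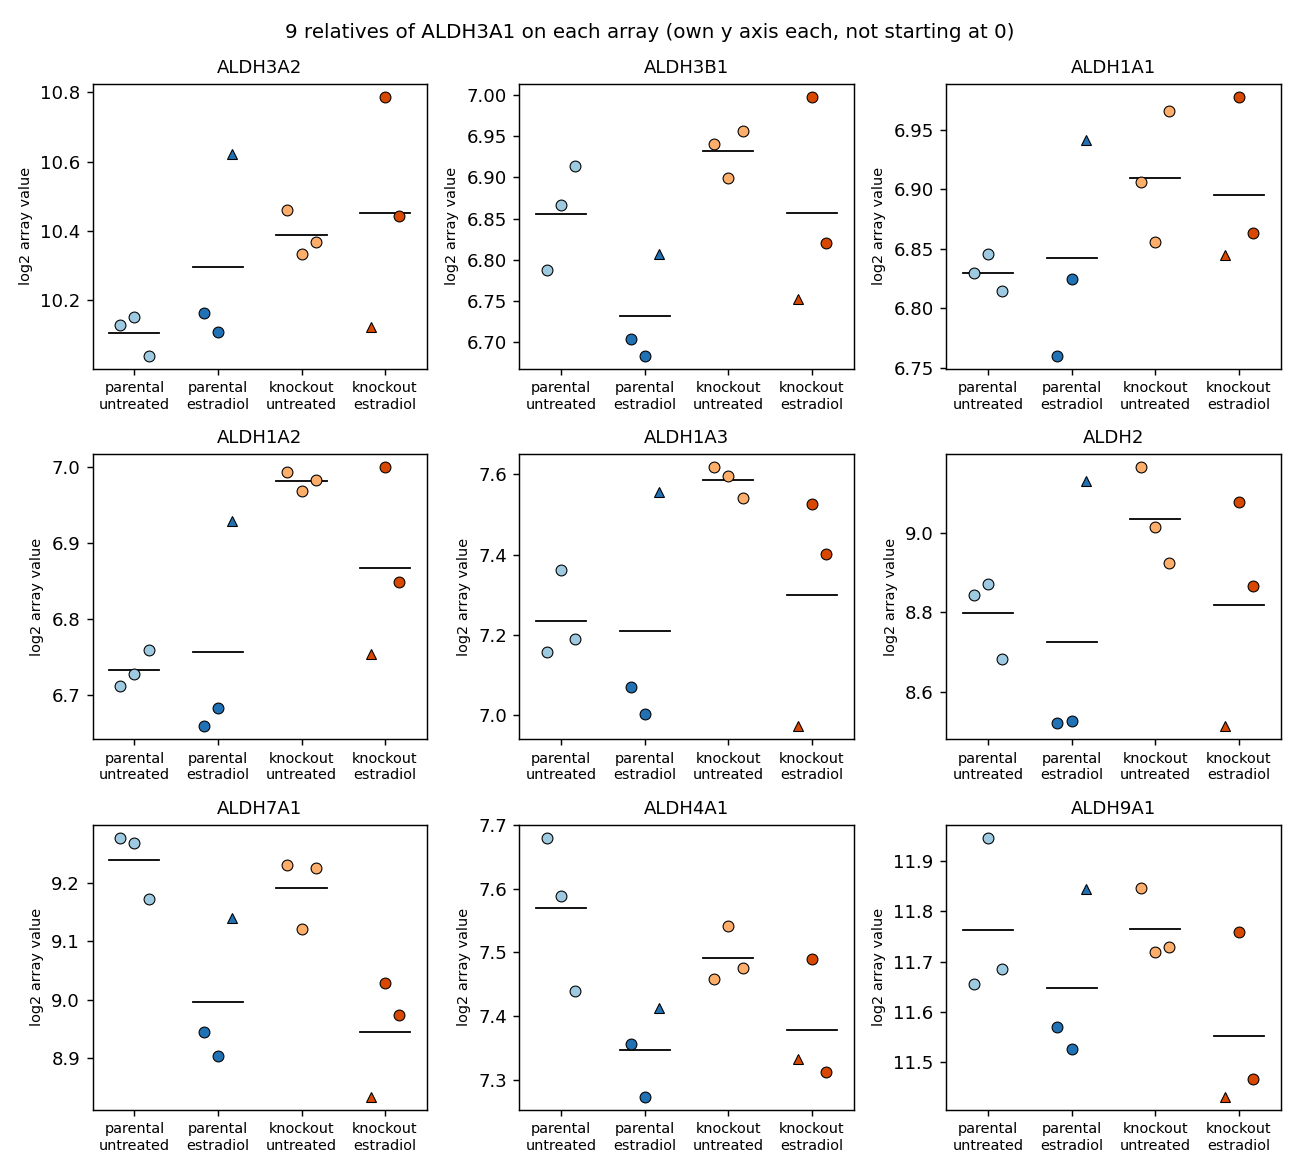
Log2 array values of the 9 relatives of ALDH3A1 in the 4 groups of 3 arrays each, 1 panel for each gene with its own y axis that does not start at 0, a bar at each group mean and triangles for the 2 arrays whose MTDH went against the label. In ALDH3A2, ALDH1A1, ALDH1A2, ALDH1A3 and ALDH2 the 3 knockout untreated arrays lie above the 3 parental untreated arrays, and the triangle of the parental estradiol group lies above the other 2 arrays of that group in all 9 panels. The share of all genes tested that lie apart in this way was not counted, and ALDH1A1 was not called.

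The other 5 members did not differ between the lines past the threshold in either fit. ALDH1A1, the retinaldehyde dehydrogenase often used to mark stem-like cells, read between 6.76 and 6.98 on the 12 arrays, and changed by 0.08 ± 0.064 in untreated cells (12 arrays; limma, adjusted p = 0.485). Its untreated groups did not overlap, at 6.81 to 6.85 in parental and 6.86 to 6.97 in knockout cells, though it was not called. For this and the other genes without overlap, the share of all genes tested that show none was not counted. ALDH3B1 read between 6.68 and 7.00 and changed by 0.08 ± 0.070 (adjusted p = 0.555). Both lay near the low end of the arrays. ALDH7A1, which acts in lysine breakdown, changed by −0.05 ± 0.075 (adjusted p = 0.757), ALDH4A1, of proline breakdown, by −0.08 ± 0.074 (adjusted p = 0.570) and ALDH9A1, of carnitine synthesis, by 0.00 ± 0.108 (adjusted p = 0.994). In estradiol without the 2 arrays, these 5 changed by 0.06 to 0.22, with adjusted p between 0.117 and 0.823.

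The median change of the 10 members between untreated lines was 0.16, against −0.03 over all genes tested, and 8 of 10 were above 0. In estradiol the median was 0.09 with 12 arrays and 0.23 without the 2 arrays, against −0.01 and 0.02 over all genes. The 9 other family genes had a median of 0.00 in untreated cells, with 0 called in either fit. At an unadjusted p under 0.05 they numbered 0 with 12 and 2 with 10 arrays, beside 5153 and 5967 of 19670 genes. In estradiol without the 2 arrays 1 of the 9 was called, ALDH1L2, a mitochondrial enzyme of folate metabolism, with a change of 0.32 ± 0.088 (limma, adjusted p = 0.0281), against 9.79% of all genes. Over all genes, the share of calls that were rises in untreated cells was 21.1% with 12 arrays and 55.8% after quantile normalization, and 30.6% and 53.9% without the 2 arrays. Subtraction of the array background moved the median of all genes to −0.12 in untreated cells, and the median of the members was 0.16 there as well. ALDH3A1 changed by 2.49 to 2.68 and the 5 members called without the 2 arrays kept their direction under quantile normalization, median centring and background subtraction.

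**Figure D3:**
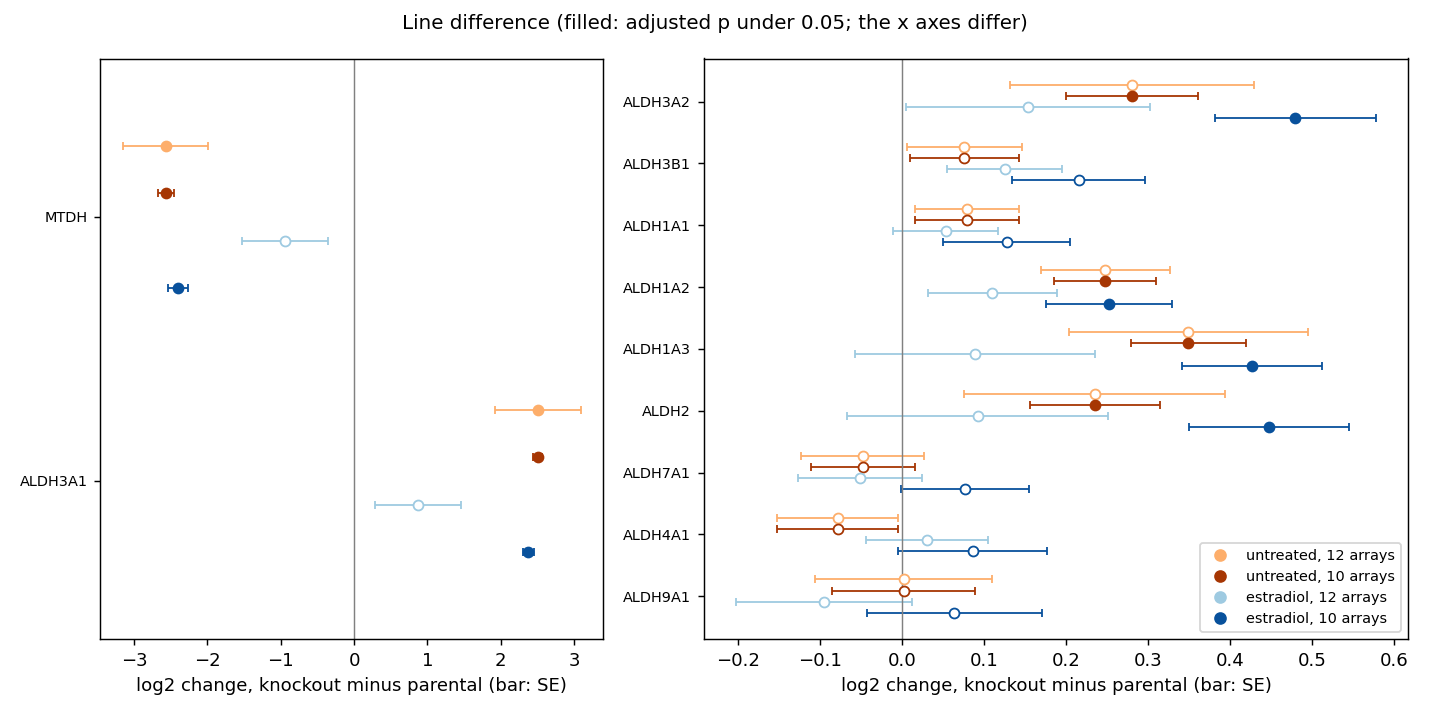
Log2 change between the lines, knockout minus parental, for MTDH and ALDH3A1 (left) and for the 9 relatives (right; a narrower x axis), with SE bars, from 12 arrays and without the 2 arrays, untreated and in estradiol; filled points passed an adjusted p under 0.05. ALDH3A1 lies at 2.50 untreated in both fits, and the filled points of the relatives, all from the 10 arrays, lie between 0.24 and 0.48.

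Whether ALDH3A1 changed by another amount than its relatives was tested on the difference of the changes, gene by gene. In untreated cells the change of ALDH3A1 exceeded that of each of the 9 relatives, by 2.15 to 2.58 with 12 arrays (9 of 9 called; limma, adjusted p between 0.00132 and 0.00398, or 0.0143 with ordinary statistics for each gene). The smallest difference was from ALDH1A3 and the largest from ALDH4A1. The same test called 99.9% of all 19669 other genes, so the count says no more of the relatives than of most genes on the array. In estradiol the differences were 0.72 to 0.97 with 12 arrays, 0 of 9 called (0.00% of all genes, with 29 at an unadjusted p under 0.05). With 10 arrays they were 1.90 to 2.31, 9 of 9 called. The background without the 2 arrays was 100% of genes in untreated cells and 100% in estradiol, where 19668 of 19669 were called and SERPINE2 was not.

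The 5 genes most like ALDH3A1 over the 12 arrays were taken by the mean absolute difference of values centred on each gene's own mean. They were SERPINE2 (0.10), ID3 (0.28), SRPX (0.36), BEX1 (0.40) and KIT (0.40 on the log2 scale). SERPINE2 changed by 2.48 between the untreated lines and by 2.28 in estradiol without the 2 arrays. Of the relatives, ALDH1A3 came nearest, at rank 345 of 19669, followed by ALDH3A2 at 400, ALDH2 at 433 and ALDH1A2 at 991. ALDH4A1 was the least like ALDH3A1 of the 9, at rank 9617.

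ALDH3A1 and ALDH3A2 lie on chromosome 17 with SLC47A2 between them, and in gene order of the RefSeq annotation (GRCh38.p14) the row runs RNF112, SLC47A1, ALDH3A2, SLC47A2, ALDH3A1, ULK2 and AKAP10. These neighbours were chosen after their values were seen. SLC47A1 and SLC47A2 encode transporters that export organic cations. SLC47A2 had a mean of 9.07 in parental untreated and 9.09 in knockout untreated cells, and between the untreated lines it changed by 0.02 ± 0.110 (limma, adjusted p = 0.957). With estradiol SLC47A2 rose by 1.12 ± 0.110 in parental cells (12 arrays; adjusted p = 6.41e-05) and by 0.92 ± 0.110 in knockout cells (adjusted p = 0.000418). SLC47A1 rose with estradiol in parental cells by 0.42 ± 0.082 (adjusted p = 0.00872). Its change of 0.19 ± 0.082 in knockout cells missed the threshold (12 arrays; adjusted p = 0.274). In estradiol SLC47A2 differed between the lines by −0.18 with 12 (limma, adjusted p = 0.896) and −0.26 with 10 arrays (adjusted p = 0.237). SLC47A1 differed there by −0.17 (adjusted p = 0.895) and −0.24 (adjusted p = 0.159). For both genes the estradiol arrays of the lines did not overlap in either fit. The share of all genes without overlap was not counted. SLC47A2 was thus called for hormone and not for line. ALDH3A1 was called for line and, in the fits of 12 and 10 arrays as given above, not for hormone. A gene that is not called may still differ.

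RefSeq promoters (GRCh38.p14, 250 bases before to 50 after a transcript start) were at hand for 8 of 10 members, with 12 starts in all. Those of ALDH3A1 and ALDH2 were not among them and were not searched, so the counts that follow say nothing of these genes. They were searched on both strands for GCGTG, the core bound by the aryl hydrocarbon receptor, for TGACNNNGC, the core of the antioxidant response element, and for the full palindromic estrogen response element. GCGTG stood in 3 of 12 promoters, against 36.5% of 35116 promoters of the same length, and TGACNNNGC (13.3% of all promoters) and the estrogen response element (0.057%) stood in 0 of 12. The 3 promoters with GCGTG belonged to ALDH3A2, ALDH1A2 and ALDH1A3, which are shown because these are relatives that were higher in the knockout line without the 2 arrays. Capitals mark GCGTG or its reverse complement CACGC, and a match is a description of the sequence only.
ALDH3A2, second start, plus strand of chr17:19648501-19648800: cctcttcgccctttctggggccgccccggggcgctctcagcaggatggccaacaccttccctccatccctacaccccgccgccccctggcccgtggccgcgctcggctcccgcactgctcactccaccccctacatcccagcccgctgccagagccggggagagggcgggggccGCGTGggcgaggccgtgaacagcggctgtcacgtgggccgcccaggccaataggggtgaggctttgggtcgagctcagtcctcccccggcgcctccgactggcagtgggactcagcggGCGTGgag
ALDH1A2, first start, minus strand of chr15:58065662-58065961: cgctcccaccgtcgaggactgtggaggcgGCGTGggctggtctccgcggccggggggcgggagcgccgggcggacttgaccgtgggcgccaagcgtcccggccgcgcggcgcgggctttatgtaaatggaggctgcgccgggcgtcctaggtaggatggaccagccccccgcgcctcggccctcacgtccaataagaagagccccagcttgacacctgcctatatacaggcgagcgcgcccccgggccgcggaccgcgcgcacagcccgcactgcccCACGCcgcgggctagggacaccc
ALDH1A3, plus strand of chr15:100879581-100879880: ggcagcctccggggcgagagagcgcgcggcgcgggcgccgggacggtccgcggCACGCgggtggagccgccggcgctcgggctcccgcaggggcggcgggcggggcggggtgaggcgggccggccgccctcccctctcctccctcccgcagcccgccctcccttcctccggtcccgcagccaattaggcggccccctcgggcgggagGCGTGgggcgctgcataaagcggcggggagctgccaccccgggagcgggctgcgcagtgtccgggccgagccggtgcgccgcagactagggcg
Counted from the start as +1, the matches begin at −76 and +43 in ALDH3A2, at −221 and +28 in ALDH1A2 and at −197 and −43 in ALDH1A3. The first start of ALDH3A2 and the second of ALDH1A2 held 0 matches.

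Estradiol lowered ALDH7A1, the aminoadipic semialdehyde dehydrogenase of lysine breakdown, in the mean of both lines. It read 9.28, 9.27 and 9.17 in parental untreated cells and 8.95, 8.90 and 9.14 on the arrays labelled parental estradiol, with no overlap. Knockout untreated cells read 9.23, 9.12 and 9.22 and the arrays labelled knockout estradiol read 8.83, 9.03 and 8.97, again with no overlap. Every array with estradiol was thus lower than every untreated array of the same label. This rests on the labels, as parental estradiol 3, at 9.14, lay above knockout untreated 2, at 9.12. Averaged over the lines the change was −0.24 ± 0.053 (12 arrays; limma, adjusted p = 0.00971), and −0.25 without the 2 arrays (adjusted p = 0.00233). The value of this mean, though not its SE or p, stays the same if the 2 arrays are exchanged for each other, as each line has 1 of them. By line, ALDH7A1 changed by −0.24 ± 0.075 (adjusted p = 0.0717) in parental and −0.25 ± 0.075 (adjusted p = 0.0941) in knockout cells with 12 arrays. Without the 2 arrays the parental fall of −0.32 ± 0.071 passed (adjusted p = 0.00871) and the knockout value of −0.19 ± 0.071 did not (adjusted p = 0.132). The parental fall was −0.17 and missed the threshold after quantile normalization of the 10 arrays.

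In the mean of both lines 1 of 10 members was called, ALDH7A1, which fell, against 10.6% of all genes with 12 arrays and 14.4% without the 2 arrays, of which 8.76% and 11.8% fell. At an unadjusted p under 0.05 the members numbered 2 and 6 of 10, beside 4660 and 5222 of 19670 genes tested. In parental cells 0 of 10 were called with 12 arrays (background 7.00%) and 1 of 10 without the 2 arrays (background 10.7%). At an unadjusted p under 0.05 they were 2 of 10 with 12 arrays, beside 4116 of 19670 genes. Without the 2 arrays they were 7 of 10, beside 4848 genes. In knockout cells 0 of 10 were called in both fits (background 3.88% and 6.80%). There 1 of 10 with 12 and 2 of 10 with 10 arrays had an unadjusted p under 0.05, beside 3226 and 3673 genes. The median response of the members was −0.12 in the mean of both lines, against −0.03 over all genes. In that comparison the share of rises among all calls was 17.4% with 12 arrays and 45.3% after quantile normalization, and ALDH7A1 was called lower in both.

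ALDH4A1, which completes the breakdown of proline, read 7.68, 7.59 and 7.44 in parental untreated cells and 7.36, 7.27 and 7.41 on the arrays labelled parental estradiol. Its mean response over both lines, −0.17 ± 0.052, missed the threshold (12 arrays; limma, adjusted p = 0.0581). ALDH9A1, the aldehyde dehydrogenase of carnitine synthesis, read between 11.43 and 11.95 on the 12 arrays and had a mean response of −0.16 ± 0.076 (adjusted p = 0.213). ALDH2 had a response of −0.27 ± 0.089 in parental cells without the 2 arrays (adjusted p = 0.0586), and all 3 untreated arrays lay above the 2 left with estradiol. ALDH1A3 had −0.20 ± 0.078 in the same comparison (adjusted p = 0.117).

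In the rest of the family, ALDH6A1, which acts in valine and pyrimidine breakdown, fell in both lines. It read 8.86, 8.84 and 8.82 in parental untreated cells and 8.46, 8.56 and 8.53 on the arrays labelled parental estradiol. In the knockout line it read 8.94, 8.70 and 8.83 untreated and 8.36, 8.61 and 8.42 with estradiol. The groups did not overlap in either line, and the array labelled parental estradiol 3 read like the other estradiol arrays. The change was −0.33 ± 0.076 in parental (12 arrays; limma, adjusted p = 0.0221) and −0.36 ± 0.076 in knockout cells (adjusted p = 0.0195). ALDH5A1, of the breakdown of the transmitter GABA, fell by 0.23 in the mean of both lines without the 2 arrays (adjusted p = 0.0262) and had adjusted p = 0.144 with 12 arrays. The other 7 had mean responses of −0.14 to −0.07 with 12 arrays, with adjusted p between 0.089 and 0.671.

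**Figure D4:**
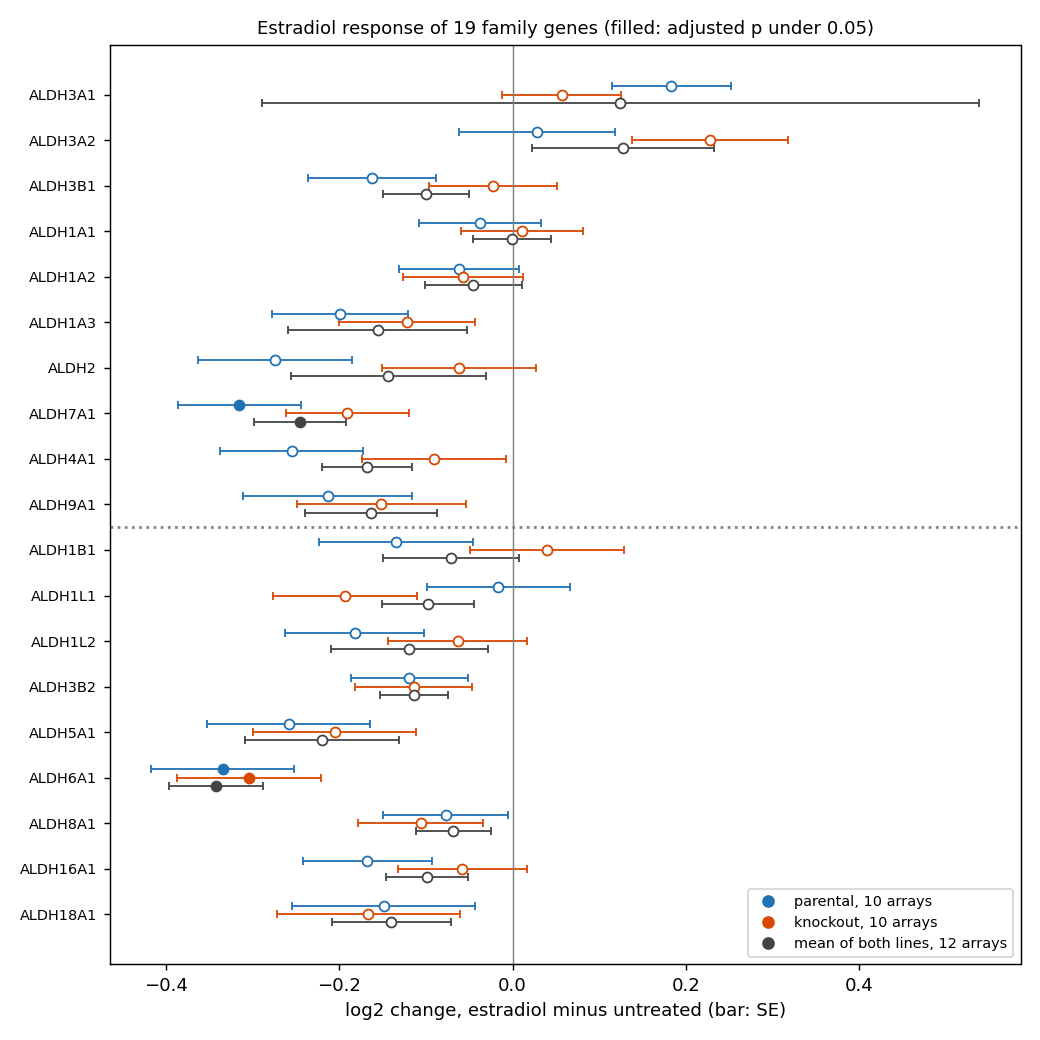
Log2 change with estradiol for the 10 members (above the dotted line) and 9 other family genes (below it), with SE bars, in parental and knockout cells without the 2 arrays and as the mean of both lines with 12 arrays; filled points passed an adjusted p under 0.05. ALDH7A1 and ALDH6A1 are filled, at −0.24 and −0.34 in the mean of both lines, and the bar of ALDH3A1 in that mean is the widest, with an SE of 0.414.

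For the interaction between line and estradiol, limma called 0 of 10 members with 12 arrays and 0 of 10 without the 2 arrays, and 0 of 10 had an unadjusted p under 0.05 in either fit. The background was 0.00508% of all genes with 12 arrays and 0.752% without the 2 arrays. At an unadjusted p under 0.05 it was 2069 and 2683 of 19670 genes. The values of the members with 10 arrays ran from −0.13 for ALDH3A1 to 0.21 for ALDH2. A difference between the lines in the estradiol response of a member was therefore not detectable with these arrays.

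**Figure D5:**
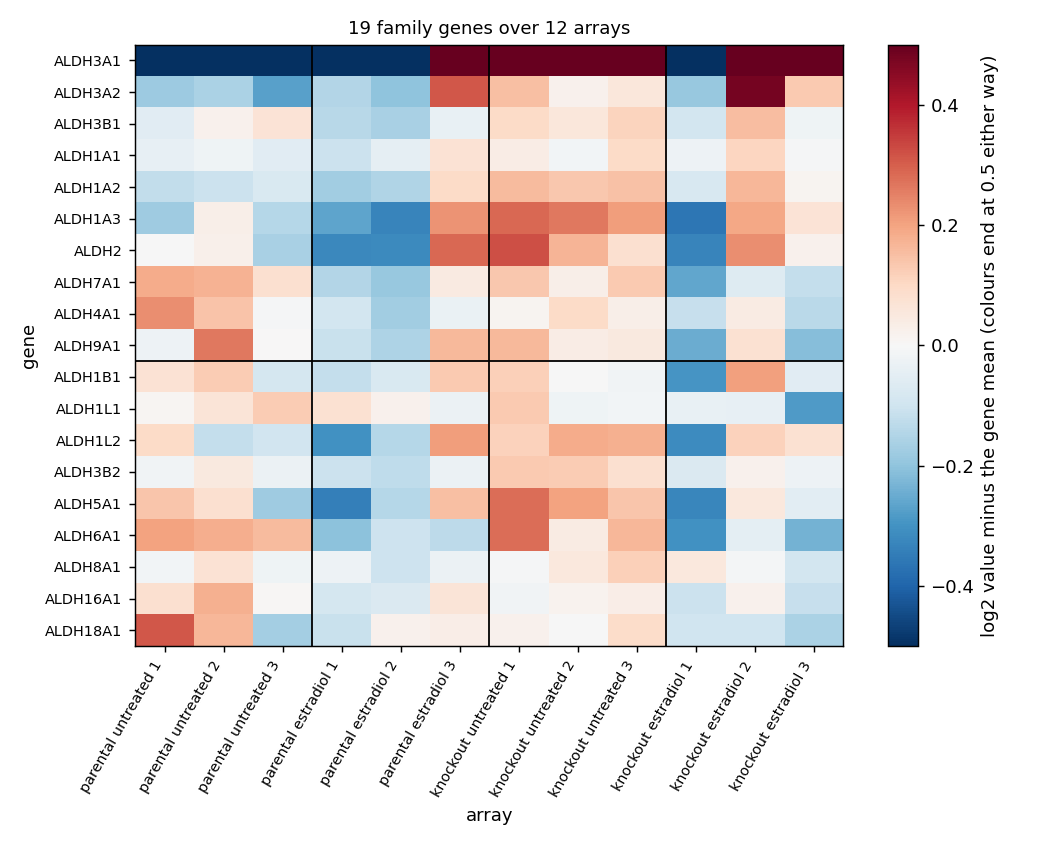
Log2 value minus the gene's own mean over 12 arrays for the 10 members (above the line) and 9 other family genes (below it), 1 column for each array; colours end at 0.5 either way, which ALDH3A1 exceeds on every array. On the arrays labelled parental estradiol 3 and knockout estradiol 1, ALDH3A1, ALDH3A2, ALDH1A2, ALDH1A3 and ALDH2 take the colour of the other line, and ALDH6A1 is low on both.

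Genes around the members were counted in lists of the same pathways. Of all genes tested, 2.31% were called higher and 8.63% lower in the untreated knockout line with 12 arrays, and 5.98% and 13.6% with 10. With estradiol in the mean of both lines 1.85% rose and 8.76% fell with 12 arrays, and 2.56% and 11.8% with 10. Of 18 tested genes of retinoic acid synthesis and response, which ALDH1A1, ALDH1A2 and ALDH1A3 serve, 4 were higher and 2 lower in the untreated knockout line with 12 arrays (4 and 3 with 10; median change −0.05), among them the transglutaminase TGM2 (0.54), the receptor RXRA (0.67) and the retinol dehydrogenase RDH5 (0.41), and RARRES2 at −0.54. With estradiol in the mean of both lines 2 rose and 4 fell with 12 arrays, and 2 and 6 with 10. DHRS3, which reduces retinaldehyde and so draws on the substrate of the 3 enzymes, rose by 3.10 (limma, adjusted p = 5.16e-08). The 3 retinaldehyde dehydrogenases themselves had estradiol responses of −0.16 to 0.00 there, with none called.

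Of 20 tested regulators and targets of the aryl hydrocarbon receptor and of NRF2, among which ALDH3A1 is often counted, 2 were higher and 3 lower in the untreated knockout line with 12 arrays (background 2.31% and 8.63%), and 5 and 4 without the 2 arrays (background 5.98% and 13.6%). In untreated cells 10 of the 20 changed upward, and the median was −0.01, against −0.03 over all genes. AHR and CYP1B1 were chosen after their values were seen. The receptor gene AHR changed by −0.12 (adjusted p = 0.501 with 12 arrays) and its target CYP1B1 by 0.49 (adjusted p = 0.156 with 12 and 0.000187 with 10 arrays). In estradiol without the 2 arrays CYP1B1 was 0.76 higher in the knockout line (adjusted p = 2.82e-05). There 5 of the list were called higher and 1 lower (background 4.96% and 4.83%), with a median of 0.16, against 0.02 over all genes. The glutathione transferase GSTA1 was lower by −0.90 in untreated knockout cells (12 arrays; adjusted p = 0.00356). Of 12 tested aldehyde and alcohol reductases, which remove aldehydes by reduction rather than oxidation, 0 were higher and 4 lower in the untreated knockout line with 12 arrays (background 2.31% and 8.63%), and 1 and 4 with 10 arrays. The 4 were AKR1C3 (−1.32), AKR1C2 (−0.65), CBR4 (−0.57) and AKR1C4 (−0.48). The AKR1C genes are near copies of each other, and which probes lie behind each value is not given in the labels or the table.

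Of 17 tested genes that make or use the substrates of the members, 3 were higher and 1 lower in the untreated knockout line with 12 arrays (background 2.31% and 8.63%), and 3 and 3 with 10 arrays. With estradiol in the mean of both lines 1 rose and 6 fell in either fit (background 1.85% and 8.76% with 12 arrays). The polyamine acetyltransferase SAT1 was 1.02 higher in untreated knockout cells (limma, adjusted p = 0.0421). PRODH, the proline oxidase that acts before ALDH4A1, fell by 0.84 with estradiol (adjusted p = 4.54e-05), beside the −0.17 of ALDH4A1 that missed the threshold. SGPL1, which releases a fatty aldehyde that ALDH3A2 oxidises, fell by 0.44 (adjusted p = 0.000419), while ALDH3A2 had a mean response of 0.13 (adjusted p = 0.538). Epithelial markers moved with the line as well: 5 of 9 were lower and 0 higher in untreated knockout cells with 12 arrays (background 8.63% lower), KRT19 by −0.86, and 7 of 9 were lower with 10 arrays (background 13.6%). In estradiol 0 of 9 were lower with 12 and 2 of 9 with 10 arrays (background 4.83% lower). Their mean level ran from 10.40 to 10.65 on parental and 10.13 to 10.22 on knockout untreated arrays. Of 4 tested fibroblast markers 1 was higher, COL1A1 by 0.52, while DCN, LUM, PDGFRA and PDGFRB were at most 6.83 on every array. COL3A1 read between 6.86 and 7.33, THY1 between 6.59 and 7.10 and COL1A2 between 6.70 and 6.86. The mean level of the 8 fibroblast markers ran from 6.80 to 6.87 on parental and from 6.92 to 6.97 on knockout untreated arrays. The part of these markers in the changes of the aldehyde dehydrogenases was not tested.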

How the data were processed

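The 12 arrays fall into 4 groups of 3 by line and estradiol, as the labels give them. The authors deposited log2 values, 1 for each gene symbol or other identifier and array, and the labels' protocols name the Illumina direct hybridization assay. Background correction, normalization between arrays and the way probes were combined are not given in the sources used here, and the table holds no detection values. No further normalization was applied, and 0 value columns were left without a sample.

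Genes that at least 3 arrays read above the overall median, 6.82, were tested in R (version 4.3.3) with limma (version 3.58.1), using 1 mean per group, empirical Bayes at default settings and two-sided p-values adjusted by the Benjamini-Hochberg method over 19670 genes for each of 6 comparisons. An adjusted p under 0.05 was called. The fit of 12 arrays has 8 residual degrees of freedom and that of 10 arrays has 6. The difference between the change of ALDH3A1 and that of each other gene was fitted in the same way on per-array differences. As all these differences share the residuals of ALDH3A1, the moderated SE was nearly constant, and ordinary statistics were added after the values were seen.

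All 10 members, MTDH and the other family genes were named in each comparison, with up to 4 called genes of each other list by smallest p. Exceptions are AHR, CYP1B1 and the neighbours of ALDH3A1, chosen after their values were seen. Of the genes this rule takes, 1 is not reported here. The members and lists were chosen with earlier results of these data known. Promoters were read from a RefSeq table (GRCh38.p14). Precision is limited by how many arrays there are.

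The settings varied were the filter (none, or at the 67th percentile), the scaling (quantile normalization, median centring, subtraction of a background), the samples fitted (the compared groups alone, or each array left out in turn), the prior (trended and robust), weights for arrays, a block for the replicate number, and a threshold of 0.01. The fit without 2 arrays was added after the values were seen. The code was tested on simulated data with known changes.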

Additional observations from a re-analysis of the deposited data

How the results depend on the processing

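With 12 arrays, the count of members called between untreated lines, 1, became 2 with median centring, 3 with array weights, 4 with the 6 arrays of these groups alone, 0 at an adjusted p under 0.01, 5 without the 2 arrays and 0 to 2 with single arrays left out. The call of ALDH3A1 was also lost with a trended and robust prior. In estradiol the count was 0 in each such setting, 0 to 0 with single arrays left out, and 5 without the 2 arrays. For estradiol in parental cells it was 1 with median centring, 2 with array weights, 1 without the 2 arrays and 0 to 1 with single arrays left out. In knockout cells it was 0 to 1 and for the interaction 0 to 0 with single arrays left out. For the mean of both lines it was 2 with median centring, 3 with array weights and 1 to 2 with single arrays left out. Over all genes, estradiol calls in parental cells numbered 1376 in the main fit, 1699 with median centring and 3027 with array weights. For the mean of both lines all genes called numbered 2086, 2357 and 3503. A higher count of members under these settings is therefore no result about the members alone.

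Without the 2 arrays, the 5 calls in untreated cells became 3 with background subtraction and 3 at an adjusted p under 0.01, and 3 to 5 with a further array left out. In estradiol they were 1 to 6 with a further array left out. For estradiol in parental cells the count, 1, became 2 with the filter at the 67th percentile, 2 with background subtraction, 6 with array weights and 0 to 3 with a further array left out. In knockout cells it was 1 after quantile normalization and 0 to 1 with a further array left out, and for the interaction 0 to 0. For the mean of both lines it was 3 after quantile normalization, 3 with array weights and 1 to 5 with a further array left out. Counts of all genes under each of these settings are not given here, so these counts of members are no result about the members alone. The 9 of 9 relatives whose change differed from that of ALDH3A1 in untreated cells remained 9 to 9 with single arrays left out. In estradiol the 0 of 9 became 9 without the 2 arrays, 9 with ordinary statistics without them, and 0 to 9 with single arrays left out. No member called in a fit changed its direction under the settings run on that fit. The estradiol differences of ALDH3A2, ALDH1A3 and ALDH2, called with 10 arrays, were not called with 12, where they fell as low as −0.01, −0.02 and −0.04 with single arrays left out. The causes of these changes were not tested.

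Of 18 pairs of same-numbered replicates, 6 had a correlation of residuals above 0.1, with a range of −0.4985 to 0.6467, so the numbers were not taken to pair the samples. The highest values, 0.6229 and 0.6467, were those of the 2 estradiol pairs numbered 1 and 3, which hold the 2 arrays that went against their labels. Without the 2 arrays, the replicate block gave 3 members for the parental estradiol response and 5 for the mean of both lines. The share of all genes called under that setting is not given here. With 12 arrays the block gave 2571 called genes in untreated cells, where 2152 were called without it, and left each count of members as it was. Over all genes the untreated count ran from 402 at an adjusted p under 0.01 to 4432 with array weights, and was 3801 with the 6 arrays alone, 3844 without the 2 arrays and 435 to 2826 with single arrays left out. Detection values and slides were not used here, so a filter on detection and a slide block were not run.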

Other observations

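Among the family genes outside the listed 10, ALDH18A1, which makes the precursor of proline, and ALDH1B1, a mitochondrial relative of ALDH2, did not differ between the lines or with estradiol past the threshold (limma). ALDH18A1 read between 11.07 and 11.55 on the 12 arrays and changed by −0.07 ± 0.097 between the untreated lines (adjusted p = 0.731). ALDH1B1 read between 8.44 and 8.94 and changed by 0.00 ± 0.111 (adjusted p = 0.990). ALDH1L1, the cytosolic partner of ALDH1L2 in folate metabolism, read 7.03, 7.02 and 6.78 on the arrays labelled knockout estradiol and had a difference of −0.21 ± 0.090 between the lines in estradiol without the 2 arrays (adjusted p = 0.179), while ALDH1L2 had 0.32 there.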
